A study of Mus musculus with 6 samples.

Results

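The genes *Stxbp5l*, *Kif21a*, *Arhgap12*, *Kansl1l*, *Wnk1* and *Sgce* are named in the study as splice targets of the RNA-binding proteins Sam68, SLM2 or both, apart from the neurexins and the synaptic scaffolds. The study treats *Stxbp5l* as a common target and *Sgce* as specific to Sam68. It reports that the *Kif21a* and *Wnk1* exons depended mainly on Sam68, with a part for SLM2. Those of *Arhgap12* and *Kansl1l* responded to Sam68 loss alone, with a mild added effect of Slm2 loss late in development. The genes were found by their symbols, which gave 6 features of the 59484 listed in the deposited table, and all 6 were among the 18970 tested. PolyA+ RNA was measured in the cortex at E18.5 in 3 wild-type embryos and in 3 embryos with both Sam68 and Slm2 knocked out (Sam68:Slm2 dKO). All came from C57BL/6 mice without a Cre driver. The study bred dKO mice from parents that both lacked Slm2, a cross that gives no wild-type pups, so that genotype and litter cannot be told apart. The libraries hold from 31837922 to 40896541 reads on the listed features.

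Sam68 and SLM2 belong to the STAR family of proteins, which bind RNA through a KH domain and read short motifs such as UAAA, often repeated, in exons or in the introns beside them. Binding near a cassette exon can favour its inclusion or its skipping. A splice switch exchanges one isoform for another and need not alter how much RNA a gene makes. A count over the whole gene adds up all isoforms, so the values given here are abundance and not exon inclusion.

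The cassette exons that the study amplified by RT-PCR were sought by matching its primers to the transcripts of GENCODE M21 (GRCm38). Shown are exons between the primers that differ among coding transcripts, and that they are the study's exons is inferred. Their numbers follow GENCODE, and those of *Stxbp5l*, *Kansl1l* and the later *Kif21a* exon differ from the numbers in the study's text. The primers of *Stxbp5l*, *Kif21a*, *Arhgap12* and *Kansl1l* enclosed an exon that some coding transcripts carry and others lack. For *Wnk1* and *Sgce* the forward primer had no exact match in the transcripts, so the exons are not shown. All are coding exons on the minus strand, written 5′ to 3′ as in the RNA with T for U, and capitals mark TAAA, the DNA form of the UAAA motif, searched on the sense strand only.
Stxbp5l exon 22 of 28, chr16:37142276-37142446: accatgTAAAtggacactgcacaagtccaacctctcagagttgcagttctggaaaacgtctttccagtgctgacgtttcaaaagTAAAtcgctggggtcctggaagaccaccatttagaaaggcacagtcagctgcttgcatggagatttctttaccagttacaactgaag
Kif21a exon 28 of 37, chr15:90952711-90952818: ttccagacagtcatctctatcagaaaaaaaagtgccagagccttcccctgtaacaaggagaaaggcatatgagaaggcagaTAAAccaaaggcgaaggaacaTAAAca
Kif21a exon 12 of 37, chr15:90976471-90976509: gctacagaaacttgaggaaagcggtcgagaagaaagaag
Kansl1l exon 8 of 14, chr1:66728444-66728575: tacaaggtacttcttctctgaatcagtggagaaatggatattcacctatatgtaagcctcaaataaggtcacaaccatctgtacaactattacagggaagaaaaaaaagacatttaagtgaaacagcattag

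The *Stxbp5l* exon, of 171 bases, held TAAA 2 times, and the 108-base exon of *Kif21a* also held it 2 times. The 39-base exon of *Kif21a* and the 132-base exon of *Kansl1l* held no TAAA, nor did the exons of 15 and 75 bases in *Arhgap12*. Of all internal exons within 10% of the same length, 30.4% held TAAA for 171 bases, 25.7% for 108, 13.2% for 39 and 27% for 132. For 15 and 75 bases these shares were 7.96% and 20.7%. The exons of all 4 genes were a multiple of 3 bases long and had no stop codon in frame, so that including or skipping them keeps the reading frame. Of internal exons of similar length, 36.4% for 171 bases, 40.2% for 108, 57.9% for 39, 39.7% for 132, 75.2% for 15 and 40.2% for 75 were a multiple of 3. The exons made up little of their transcripts, 3.89% of 4394 bases in *Stxbp5l*, 1.68% and 0.606% of 6439 bases in *Kif21a*, and 3.80% of 3470 bases in *Kansl1l*. Introns were not searched, since the genome sequence was not used here. The study did count bipartite motifs with a (U/A)AA core in the sequence flanking target exons. It reports a high occurrence beside those of *Stxbp5l*, *Kansl1l* and *Arhgap12*, and also beside other exons of these genes. The study proposes that target exons are set apart by motif density together with a first motif close to the 3′ splice site. The absence of TAAA within an exon therefore says nothing about the sequence beside it.

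In the cortex of dKO embryos, none of these genes had an abundance that passed the test against wild type, and their fitted folds ran from 0.862 in *Stxbp5l* to 1.18 in *Kif21a*. With limma on log2(normalized count + 1) and Benjamini-Hochberg adjustment over all features tested, 0 of the 6 passed an adjusted *P*-value of 0.05, where 0.1% of all features did (19 of 18970). *Kif21a* alone reached an unadjusted *P*-value under 0.05, as did 11.5% of all features (4.92% with dKO higher). It was also the only 1 of the 6 whose genotypes did not overlap, which 16.4% of all features showed, 7.89% with dKO higher and 8.48% with dKO lower. edgeR and DESeq2, run on the recovered reads, each called 0 of the 6 and had 1 at an unadjusted *P*-value under 0.05. In 4 genes the fitted difference was below 0 and in 2 above it, with a median of -0.09 on the log2 scale against 0.00 over all features tested. The median size without its sign was 0.17, against 0.15 over all features and 0.12 over the 13077 with a mean of at least 100. The RNA came from whole cortex, where fewer cells of a type and less RNA per cell cannot be told apart.

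**Figure D1:**
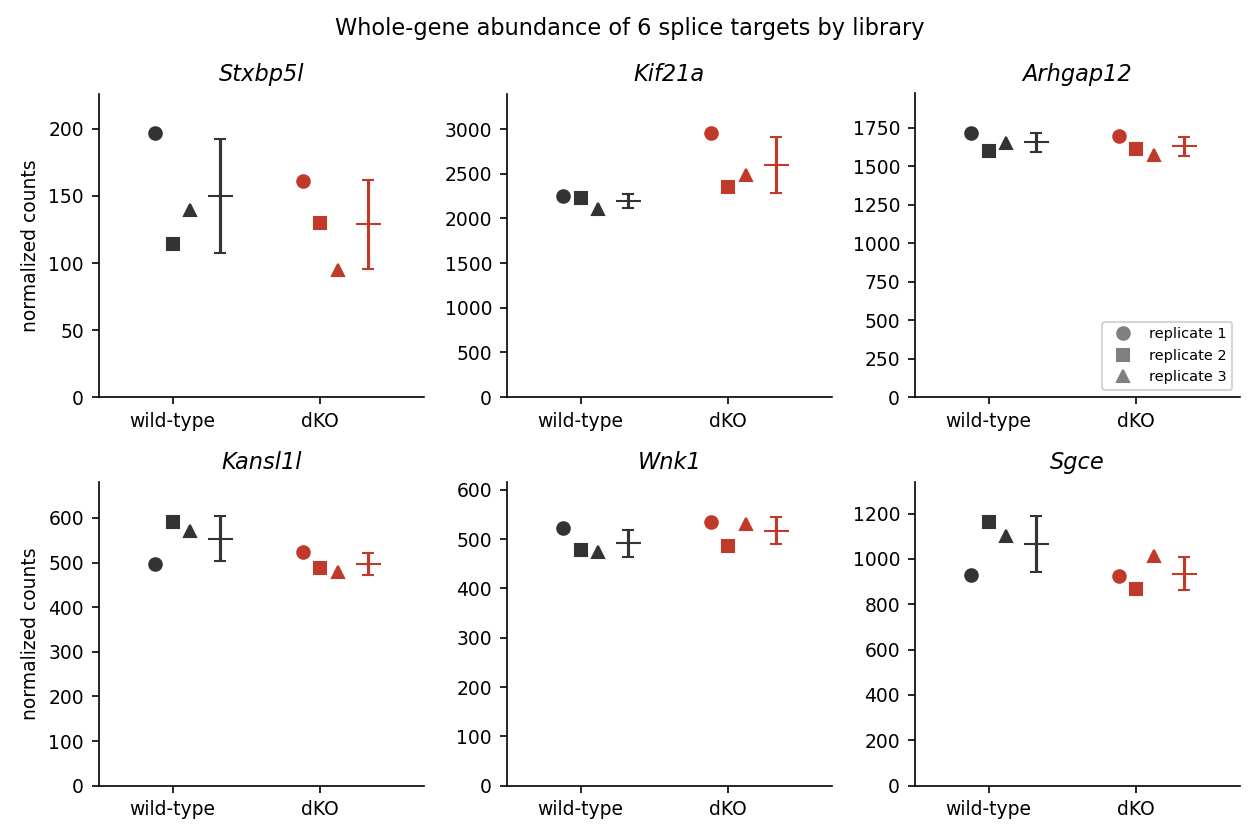
Normalized counts (vertical axes, linear from 0) of the 6 genes in the 3 wild-type (dark) and 3 dKO (red) libraries, with 1 point per library shaped by its replicate number and the mean ± SD beside the points. Only in *Kif21a* do the dKO points, at 2357 to 2955, all lie above the wild-type points, at 2101 to 2255.

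*Kif21a*, at chr15:90933275-91049953 (mm10), encodes a kinesin-4 motor that travels along microtubules and restrains their growth at the cell periphery. It was measured at 2255, 2224 and 2101 normalized counts in the 3 wild-type libraries, against 2955, 2357 and 2487 in the dKO libraries. All 3 dKO libraries were higher than every wild-type library, with dKO replicate 1 the highest by a wide margin. The means were 2193 ± 81.8 and 2600 ± 314 (SD, n = 3 each), a log2 difference of 0.24 (SE 0.10, 95% confidence interval 0.02 to 0.45). The adjusted *P*-value of limma was 0.396, and the exact two-sided permutation test gave 0.1, the smallest value that 3 against 3 libraries allow. Without dKO replicate 1 the log2 difference was 0.14 and its unadjusted *P*-value 0.119. Of the tested features, 34.0% differed by more in either direction. At this spread a call would have needed a fold of 1.55, and the measured fold was 1.18.

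*Kif21a* lies on the same chromosome as *Khdrbs3*, the gene of SLM2, at a distance of 21.8 Mb. Of the 335 tested features between them, 1 was called by limma, as were 0.1% of all features tested. An unadjusted *P*-value under 0.05 was reached by 13.4% of the 335, against 11.5% of all features. Their median log2 difference was 0.01, against 0.00 over all features tested. The nearest named neighbours of *Kif21a* went both ways. *Abcd2*, a peroxisomal transporter gene 95.9 kb away, was higher in all 3 dKO libraries at 353, 318 and 348 normalized counts against 288, 293 and 299. The log2 difference of *Abcd2* was 0.21 (SE 0.13, adjusted *P*-value 0.539 by limma). *Cpne8* on the other side had a log2 difference of -0.73 (SE 0.45), with overlapping genotypes. An unnamed feature inside *Kif21a* held 167 reads over all libraries and therefore little of its signal.

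Summed markers of several cell types moved in the same libraries in which *Kif21a* was higher. Summed over the 6 pan-neuronal markers, the wild-type libraries held 241066 to 258807 normalized counts and the dKO libraries 266453 to 280324, without overlap. The most abundant genes carry such a sum, here above all *Tubb3*, with means of 143317 in wild-type and 162427 in dKO libraries. The difference of *Tubb3* depended on the normalization, as given below. The log2 differences of single pan-neuronal markers ran from -0.08 to 0.20, with a median of 0.08. The 4 markers of intermediate progenitors summed to between 7433 and 9825 in wild-type and between 10507 and 13832 in dKO libraries. The 5 markers of the oligodendrocyte lineage went the other way, with 6865 to 11942 in wild-type libraries against 3804 to 6466 in dKO ones. The 8 markers of cortical projection neurons overlapped in their sums, at 96103 to 129070 and 108352 to 142354, and were present in every library. The log2 differences of these 8 ran from 0.09 to 0.54, with a median of 0.28. limma called 0 of the markers in these lists, and their part in the value of *Kif21a* was not tested.

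*Stxbp5l*, at chr16:37107318-37384958, encodes tomosyn-2, a syntaxin-binding protein that holds back SNARE complex assembly and so vesicle release. It rested on the fewest reads of the 6 genes, with 197, 114 and 139 normalized counts in the wild-type libraries, against 162, 130 and 95.1 in the dKO ones. The genotypes overlapped, and in each of them the library numbered 1 was the highest. The means were 150 ± 42.5 and 129 ± 33.2, a log2 difference of -0.21 (SE 0.26, 95% confidence interval -0.78 to 0.35, adjusted *P*-value 0.764 by limma). The exact permutation *P*-value was 0.5.

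The libraries of one genotype scattered more for *Stxbp5l* than for the other genes. The coefficient of variation was 28.3% in wild-type and 25.8% in dKO libraries, where counting alone would give 11.0% in the library with the fewest reads, 82. Replicate 1 stood 0.64 above the mean of the other wild-type libraries on the log2 scale, and 0.54 above that of the other dKO libraries. Without wild-type replicate 1 the log2 difference was -0.00, and without wild-type replicate 2 it was -0.39. A call would have needed a fold of 3.17, so smaller differences were not detectable in *Stxbp5l* at this spread. Its neighbours *Polq* and *Gtf2e1* had log2 differences of 0.10 each, and no other feature lies inside its span.

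The libraries numbered 1 also stood apart in the length of the transcripts they favoured. Over 13975 tested features with a known length, the deviation of a library from the mean of all 6 had a Spearman correlation with transcript length of 0.26 in wild-type and 0.33 in dKO replicate 1, and of -0.12 to -0.23 in the other 4 libraries. These correlations run across features that share a library, and are a description. The longest transcript of *Kif21a* was longer than that of 87.5% of the tested features with a length, and that of *Wnk1*, of 11330 bases, longer than 98.4%. Correcting each library for transcript length left the log2 differences of *Stxbp5l* at -0.21 and of *Kif21a* at 0.22, and brought that of *Wnk1* from 0.07 to 0.03.

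*Sgce*, at chr6:4674352-4747204, encodes epsilon-sarcoglycan, a membrane glycoprotein that is expressed from the paternal allele and is mutated in myoclonus-dystonia. It was measured at 929, 1164 and 1102 normalized counts in the 3 wild-type libraries, against 924, 867 and 1014 in the dKO libraries. The lowest wild-type library, replicate 1, fell within the dKO range, and the other wild-type libraries lay above every dKO library. The means of 1065 ± 122 and 935 ± 74.0 gave a log2 difference of -0.18 (SE 0.11, 95% confidence interval -0.43 to 0.06, adjusted *P*-value 0.544 by limma). The exact permutation *P*-value was 0.2. Without wild-type replicate 1 the log2 difference was -0.28, with an unadjusted *P*-value of 0.0296 and an adjusted one of 0.592. Without wild-type replicate 2 it was -0.12 and without dKO replicate 2 it was -0.13. *Peg10*, another paternally expressed gene that lies 0.102 kb from *Sgce*, was measured at 365 ± 63.2 in wild-type and 364 ± 21.3 in dKO libraries. *Casd1*, on the other side, was higher in all 3 dKO libraries, at 592, 565 and 572 against 530, 537 and 455, with a log2 difference of 0.19 and an adjusted *P*-value of 0.541.

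*Kansl1l*, at chr1:66719243-66817595, is a paralogue of *Kansl1*, which encodes a scaffold of the NSL histone acetyltransferase complex. It was measured at 497, 592 and 572 normalized counts in the 3 wild-type libraries, against 525, 488 and 478 in the dKO libraries. Here too wild-type replicate 1 fell within the dKO range while the other wild-type libraries lay above it. The log2 difference was -0.15 (SE 0.12, 95% confidence interval -0.41 to 0.10, adjusted *P*-value 0.625 by limma), and the exact permutation *P*-value was 0.2. The 3' end of *Kansl1l* overlaps that of *Rpe*, a pentose phosphate pathway gene with 1056 ± 109 normalized counts in wild-type libraries and 1176 ± 50.6 in dKO ones. The strand setting of the counting is not given in the sources used here, so reads in that overlap cannot be assigned with certainty. *Unc80* and *Acadl* beside it had log2 differences of 0.23 and -0.23.

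*Arhgap12*, at chr18:6024448-6136099, encodes a RhoGAP, a protein that switches off small GTPases such as Rac1 and that acts at excitatory synapses. It was measured at 1714, 1595 and 1650 normalized counts in the 3 wild-type libraries, against 1697, 1613 and 1572 in the dKO libraries. The ranges nearly coincided, and the coefficient of variation was 3.60% in wild-type and 3.93% in dKO libraries. The log2 difference was -0.02 (SE 0.08), with a 95% confidence interval of -0.20 to 0.16 and an adjusted *P*-value of 0.933 by limma. The exact permutation *P*-value was 0.7. The interval leaves room for a fold between 0.868 and 1.12. The sign changed with single libraries, the log2 difference being 0.0035 without wild-type replicate 1 and 0.0017 without dKO replicate 3. Of the tested features, 91.5% differed by more. The neighbours *Zeb1* and *Kif5b* had log2 differences of -0.02 and 0.13.

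*Wnk1*, at chr6:119923971-120038657, encodes a kinase that senses chloride and, through the kinases SPAK and OSR1, adjusts the cation-chloride cotransporters. It was measured at 523, 478 and 474 normalized counts in the 3 wild-type libraries, against 535, 485 and 531 in the dKO libraries. The highest library was a dKO one, but the ranges overlapped. The log2 difference was 0.07 (SE 0.11), with a 95% confidence interval of -0.17 to 0.32, an adjusted *P*-value of 0.820 by limma and an exact permutation *P*-value of 0.2. *Rad52*, which lies 1.14 kb from *Wnk1*, had a log2 difference of -0.13, and *B4galnt3* on the other side -0.23.

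**Figure D2:**
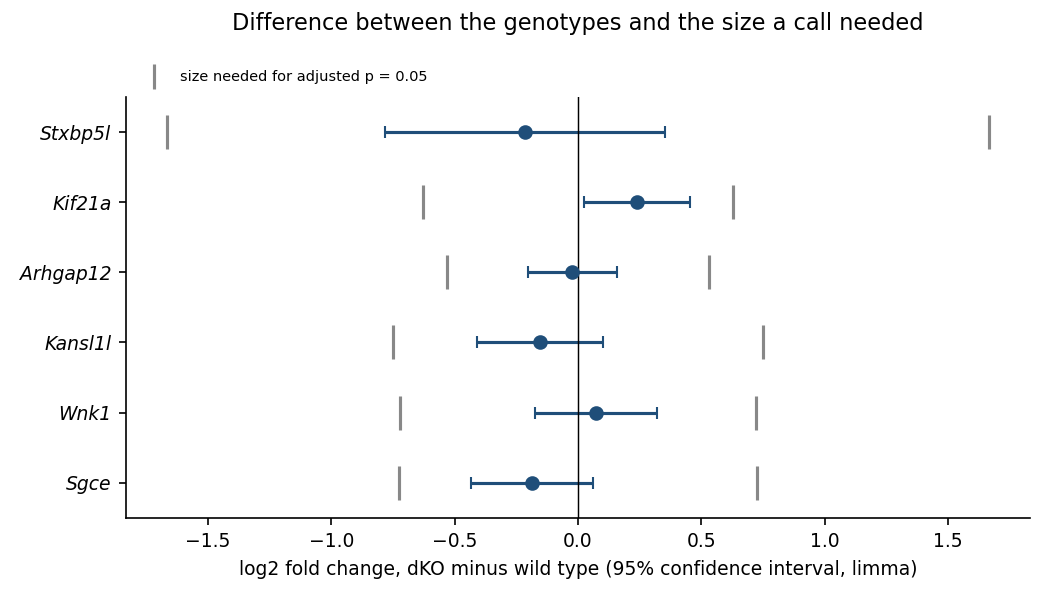
Log2 fold change of dKO against wild type for the 6 genes (points) with 95% confidence intervals from limma (bars), and the size that an adjusted *P*-value of 0.05 would have needed (grey ticks). Every point lies inside its ticks, and only the interval of *Kif21a*, 0.02 to 0.45, leaves out 0.

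The 6 genes were expressed at different levels. Per kilobase of the longest annotated transcript, *Arhgap12* stood first in wild-type libraries at 367 ± 13.2 normalized counts per kb, followed by *Kif21a* at 341 ± 12.7. *Sgce* came next at 241 ± 27.6 and *Kansl1l* at 124 ± 11.1, and *Wnk1* and *Stxbp5l* were lowest at 43.4 ± 2.40 and 34.1 ± 9.68. The wild-type libraries of neighbours in this order did not overlap, except for *Wnk1*, at 41.9 to 46.2 per kb, and *Stxbp5l*, at 25.9 to 44.8. In dKO libraries *Kif21a* stood first at 404 ± 48.8, its range of 366 to 459 overlapping that of *Arhgap12*, 349 to 377. This order depends on the length used. Per kilobase of the median transcript, *Wnk1*, which has 26 annotated transcripts from 181 to 11330 bases, moved to 477 in wild-type libraries and stood above *Kif21a* at 357.

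The profiles over the 6 libraries were compared by the root-mean-square difference of log2 values, each centred on the gene's own mean. Among pairs of the 6, *Arhgap12* and *Wnk1* were closest at 0.0728, followed by *Kansl1l* and *Sgce* at 0.0916 and by *Kif21a* and *Wnk1* at 0.115. *Stxbp5l* was the farthest from each of the others, at 0.291 to 0.423. Among 12732 named features with a mean of at least 50, the nearest to *Kif21a* were *Rbmx* at 0.0240, *Pik3ca* at 0.0281 and *Top1* at 0.0299, where the median over all candidates was 0.202. *Bcs1l* and *Srd5a1* were near to *Kansl1l*, with *Bcs1l* the nearest at 0.0194 against a median of 0.190. *Parp16*, *Ypel4* and *Nsa2* were nearest to *Sgce*, with *Parp16* at 0.0404 against 0.211. *Lrrc49*, *Kif1bp* and *Snap47* were nearest to *Arhgap12*, and *Hectd3*, *Bclaf1* and *Celf5* to *Wnk1*. The nearest to *Stxbp5l* were farther off, *Tuba4a* at 0.0759, *Ahr* and *Fn1*. Of the nearest 3 features of each gene, only *Bcs1l* was again among the nearest 3 once the genotype means were removed.

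**Figure D3:**
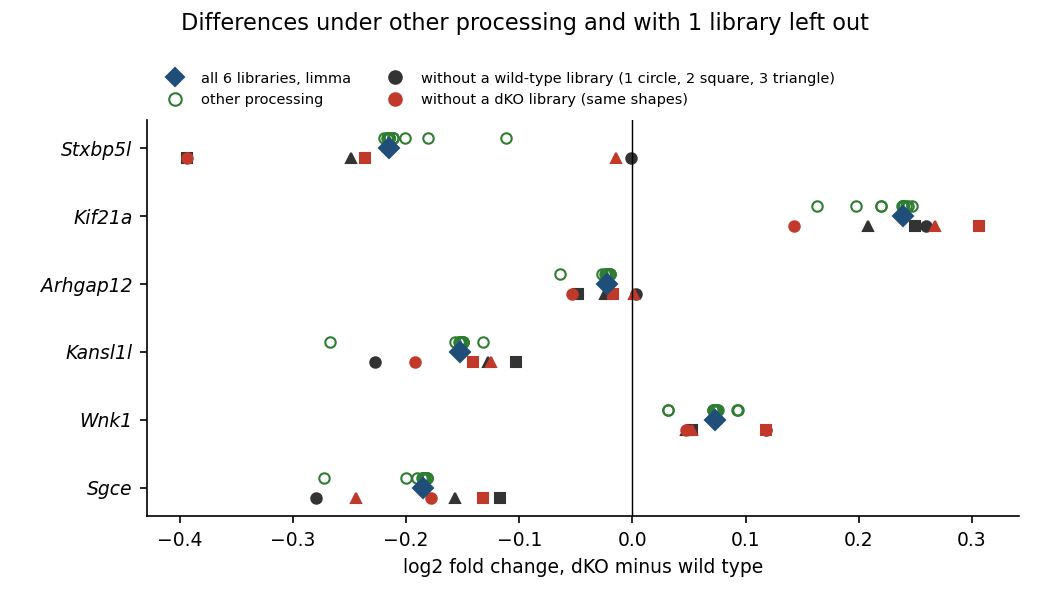
Log2 fold change of dKO against wild type for the 6 genes with all libraries (diamonds), under other processing (open circles) and with 1 library left out (filled symbols, black for wild-type and red for dKO, shaped by replicate number). *Kif21a* stays between 0.14 and 0.31, while *Stxbp5l* runs from -0.39 to -0.00.

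The genes around the 6 in their pathways were read from 6 lists of 74 genes, of which 69 were tested. limma called 0 of the 69, and so did edgeR and DESeq2. By each of the 3 tools, 9 of them (13%) had an unadjusted *P*-value under 0.05, against 11.5% of all features for limma. In 7 of the 69, or 10.1%, the genotypes did not overlap, against 16.4% of all features.

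The kinesin-4 genes and KANK partners around *Kif21a* lay on both sides of 0, 6 of 10 above it. *Kif21b*, the closest paralogue of *Kif21a*, was measured at 29608, 28362 and 25259 normalized counts in the 3 wild-type libraries, against 36315, 28396 and 34185 in the dKO libraries. Its dKO replicates 1 and 3 lay above all wild-type libraries and replicate 2 within their range. Its log2 difference of 0.24 (SE 0.10, adjusted *P*-value 0.402 by limma) stood beside the 0.24 of *Kif21a*, and with quantile normalization *Kif21b* was at 0.13 and *Kif21a* at 0.20. *Kif4*, a mitotic member of the family, had a log2 difference of 0.32 (adjusted *P*-value 0.420). *Tubb3*, the neuronal beta-tubulin of the track, was measured at 143317 ± 5882 in wild-type and 162427 ± 3953 in dKO libraries without overlap, a log2 difference of 0.18 with an adjusted *P*-value of 0.385. With quantile normalization that of *Tubb3* was 0.02.

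Of the SNARE genes and SNARE regulators around *Stxbp5l*, 9 of 14 lay below 0, with a median of -0.00. *Stxbp5*, the paralogue that encodes tomosyn-1, was measured at 450 ± 106 in wild-type and 442 ± 33.6 in dKO libraries. *Syt1*, the calcium sensor of vesicle release, was lower in all 3 dKO libraries, at 3489, 3227 and 3122 against 4423, 3644 and 3525. Its log2 difference was -0.23 with an adjusted *P*-value of 0.412. *Stx1a*, a plasma membrane SNARE, had a log2 difference of -0.28 (adjusted *P*-value 0.393), and *Cplx1* one of 0.11.

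The RhoGAP relatives and small GTPases around *Arhgap12* had a median of -0.03 over 11 tested genes. *Rac1*, a GTPase that drives actin branching, was lower in all 3 dKO libraries, at 19038, 17983 and 18514 normalized counts against 22064, 20687 and 20815. Its log2 difference was -0.19 (SE 0.07), and its adjusted *P*-value of 0.369 was the smallest in this list. *Arhgap27*, a close relative of *Arhgap12*, had 91.6 ± 28.9 and 66.9 ± 25.5 normalized counts, and *Arhgap32* a log2 difference of 0.22.

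In the NSL and MSL complexes, 10 of 11 tested genes had a difference above 0 (9 with quantile normalization), with a median of 0.13, and *Kansl1l* lay on the other side at -0.15. Of all 18970 features tested, 9603 lay above 0, and of the 13077 with a mean of at least 100, 7425 did. *Kansl2*, an NSL subunit, was higher in all 3 dKO libraries, at 851, 881 and 956 normalized counts against 705, 797 and 733. Its log2 difference was 0.27 with an adjusted *P*-value of 0.385. *Kat8*, the acetyltransferase itself, was higher in all 3 as well, at 1118, 1114 and 1126 against 952, 1016 and 1030, with a log2 difference of 0.16 and an adjusted *P*-value of 0.496. *Ogt*, which adds N-acetylglucosamine to proteins, had a log2 difference of 0.19, and *Kansl1* itself one of 0.05.

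In the WNK pathway, 6 of 12 tested genes lay above 0 and 6 below. The kinase genes *Wnk2* and *Wnk3* had log2 differences of 0.11 and 0.07, close to that of *Wnk1*, and *Wnk4*, at 64.5 ± 19.1 and 49.1 ± 15.5 normalized counts, one of -0.40. *Slc12a5*, the neuronal potassium-chloride cotransporter that sets the chloride gradient for GABA, was measured at 1238, 729 and 1335 normalized counts in the 3 wild-type libraries, against 770, 820 and 647 in the dKO libraries. Wild-type replicates 1 and 3 were well above the dKO range, but replicate 2 lay inside it, and the log2 difference was -0.52 (SE 0.21, adjusted *P*-value 0.399 by limma). Without wild-type replicate 2 it was -0.79, with an adjusted *P*-value of 0.0571 by limma. Leaving out wild-type replicate 1 or 3 instead gave -0.41 and -0.36, with adjusted *P*-values of 0.661 and 0.756. The cotransporter gene *Slc12a4* had a log2 difference of -0.41 and *Slc12a7*, without overlap, one of 0.34, with adjusted *P*-values of 0.385 and 0.436.

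In the sarcoglycan and dystroglycan complex, 11 of 11 tested genes had a difference below 0, with a median of -0.19, next to the -0.18 of *Sgce*. Of all 18970 features tested, 9367 lay below 0. With quantile normalization 2 of the 11 lay above 0. Leaving out wild-type replicate 1 put 3 of them above 0 and their median at -0.15, while *Sgce* moved the other way, to -0.28. With all libraries, none of the 11 reached an unadjusted *P*-value under 0.05 by limma, and the smallest adjusted *P*-value was 0.549, that of *Sgcb*. *Sgcb*, the beta-sarcoglycan that pairs with epsilon-sarcoglycan, was measured at 592, 510 and 603 normalized counts in the 3 wild-type libraries, against 449, 512 and 525 in the dKO libraries. The dKO libraries were lower on average but overlapped wild-type replicate 2. *Sspn*, which encodes sarcospan, and *Sgcd* each had a log2 difference of -0.25, *Sgcd* with only 29.3 ± 15.4 and 22.8 ± 6.75 normalized counts. *Sntb1* had the most negative value, -1.80 (SE 1.10), with 0 counts in 1 dKO library and at most 35.4 in any other. That value was -0.83 by edgeR, -0.85 by DESeq2, -0.77 with a pseudocount of 10 and -2.90 with one of 0.1, and -0.30 without dKO replicate 3. Markers of meningeal fibroblasts summed to between 361 and 1255 in wild-type and between 375 and 434 in dKO libraries. Their part in these values was not tested.

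**Figure D4:**
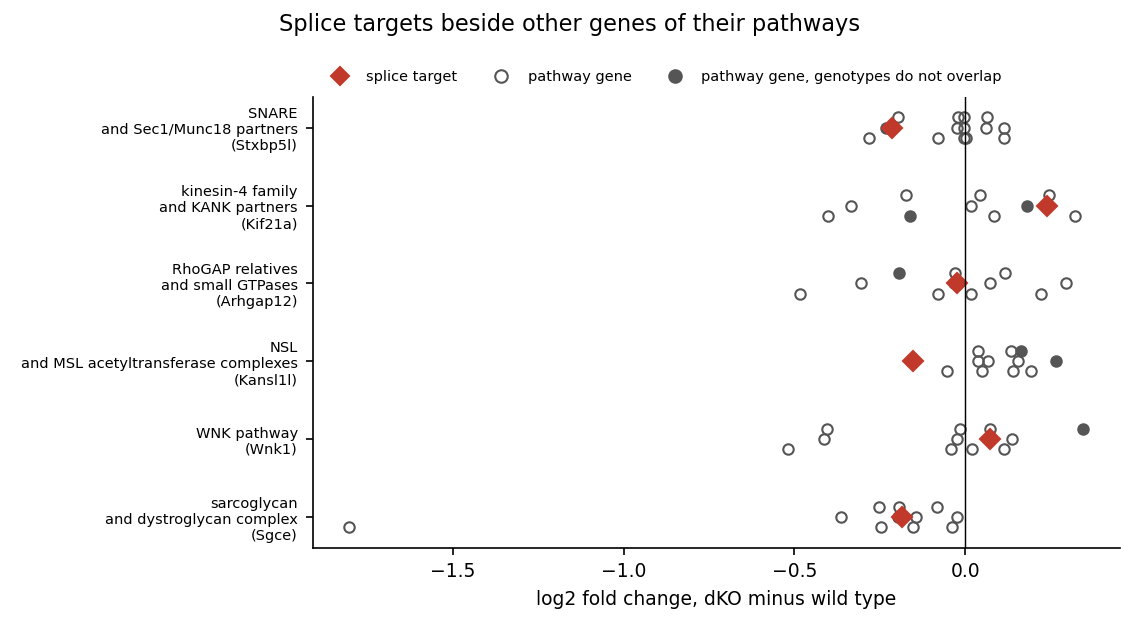
Log2 fold change of dKO against wild type for each splice target (red diamond) beside the tested genes of its pathway list (circles, filled where the genotypes do not overlap). Circles lie on both sides of 0 in every list except the sarcoglycan and dystroglycan one, where 11 of 11 are below 0 (9 with quantile normalization). In the NSL and MSL list 10 of 11 are above 0 (9 with quantile normalization). Of all 18970 features tested, 9603 lie above 0 and 9367 below.

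The targeted genes were read as a check of the labels. *Khdrbs1*, the gene of Sam68, was at 8213 ± 232 normalized counts in wild-type libraries and 152 ± 41.5 in dKO ones, and *Khdrbs3* at 13841 ± 1252 and 6652 ± 366. These differences, of -5.78 and -1.05 on the log2 scale, exceeded those of each of the 6 splice targets, and all dKO libraries lay below all wild-type libraries. Among 11 further genes that the study names or amplifies, the neurexins included, 0 were called, and *Cdh8*, at 3664 ± 548 and 4671 ± 150, had the smallest adjusted *P*-value, 0.318.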

How the data were processed

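PolyA+ RNA of E18.5 cortex was sequenced from 3 wild-type and 3 Sam68:Slm2 dKO embryos, grouped by the genotype in their labels. Per the labels, stranded mRNA libraries were made, and the submitters' processing notes name STAR 2.7.5a, mm10, FastQC, Picard, SAMtools and DESeq2. The authors deposited a signal for each gene of the FAST database, the normalized count that DESeq2 gives after dividing by the library's size factor. Divided by the smallest positive value of its library, every positive value (100%) came out whole (tolerance 0.001 reads), and these whole reads were used. Reads without a symbol were 8.48% to 9.62% of a library.

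Genotypes were compared with limma 3.58.1 (R 4.3.3, trend and robust) on log2(normalized count + 1), a scale that understates the change of low genes (but can overstate it where a library is at 0), keeping features whose mean was 10 or more. The Benjamini-Hochberg method adjusted *P*-values, and single genes were also compared by exact two-sided permutation. Nothing in the labels says that the embryos came from separate litters, so *P*-values measure the spread between these samples. edgeR 4.0.16 and DESeq2 1.42.0 were run on the recovered reads. The fit was tested on simulated data. Genes named are the 6 targets, the closest relatives and the 3 genes of smallest *P*-value in each pathway list, the nearest neighbours and the nearest profiles. The members and lists were chosen with earlier results of these data known. Transcript lengths, exons and primer matches come from GENCODE M21 with Python 3.11.15. Of the lists, *Arhgap9* and *Sgca* were too low to test and *Msl1* was not analysed here. A few other genes of the lists and profiles are not reported here. Marker lists of radial glia, interneurons, choroid plexus, endothelial cells, microglia and erythroid cells, read for cell content, overlapped between the genotypes in their sums and held no called gene. Splicing was not analysed here.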

Additional observations from a re-analysis of the deposited data

How the results depend on the processing

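None of the 6 genes was called under any of the 20 alternatives, and their log2 differences kept their sign except that of *Arhgap12*, which turned without wild-type replicate 1 (0.0035) and without dKO replicate 3 (0.0017). With 1 library left out, the log2 difference ranged from -0.39 to -0.00 for *Stxbp5l*, from 0.14 to 0.31 for *Kif21a*, from -0.054 to 0.0035 for *Arhgap12*, from -0.23 to -0.10 for *Kansl1l*, from 0.05 to 0.12 for *Wnk1* and from -0.28 to -0.12 for *Sgce*. *Kif21a* had an unadjusted *P*-value under 0.05 in 14 of the 20. It was above that by limma without its trend and robust options, by quantile normalization, without both libraries numbered 1 (log2 difference 0.16) and without wild-type replicate 2, wild-type replicate 3 or dKO replicate 1. Its smallest adjusted *P*-value was 0.273. The length correction used a lowess fit with a span of 0.3.

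The count of all features called, 19, moved to 7 without the trend and robust options, 202 by DESeq2, 9 with the length correction (13975 features with a length, in place of 18970), 5 without both libraries numbered 1, and 7 to 46 with 1 library left out. Leaving out dKO replicate 3 gave 7 and leaving out dKO replicate 1 gave 46. The deviations of same-numbered libraries from their genotype means had correlations of 0.0980, -0.228 and -0.0790, without a common sign. Between differently numbered libraries they ran from -0.138 to 0.205, the highest being that of wild-type replicate 3 with dKO replicate 2. Whether libraries of the 2 genotypes shared a batch was not tested. With the replicate number as a block the count was 9, and 3 with the length correction as well, again over 13975 features. The block changed no call among the 6 genes.

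Among other named genes, *Stxbp5* turned positive with quantile normalization (0.028), TMM rescaling (0.00041) and without both libraries numbered 1 (0.20), and ranged up to 0.18 with 1 library left out. *Kansl1* turned without both libraries numbered 1 (-0.0023) and without dKO replicate 3 (-0.012), *Wnk2* without dKO replicate 1 (-0.016, up to 0.21 without wild-type replicate 1), and *Sgcd* without both libraries numbered 1 (0.30) and without wild-type replicate 1 (0.13, down to -0.64 without wild-type replicate 2). The cause was not tested. Per kilobase of the median transcript, wild-type levels were 1152 for *Arhgap12*, 628 for *Sgce*, 198 for *Kansl1l* and 54.2 for *Stxbp5l*.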
